A study of Mus musculus with 3 samples.

Results

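The solute carrier (Slc) genes encode membrane proteins that move amino acids, sugars, ions, metals, vitamins and metabolites across cell and organelle membranes. They were followed here in lists of 5-methylcytosine (m5C) sites in mouse oocyte and embryo mRNA. A gene was taken as a member where it had a called site in any of the 3 lists and its symbol began with Slc and a digit. This gave 135 of the 8353 listed genes and 646 of the 40298 distinct sites. By this naming rule 3 members came in that are not carriers, namely Slc9a3r1, a scaffold protein that binds carriers, Slc4a1ap, and Slc7a6os. They were kept and are described apart from the carriers.

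The lists came from RNA bisulfite sequencing of wild-type C57BL/6J mice, with 1 library for each stage. Bisulfite converts cytosine (C) to uracil and leaves m5C as C, so the level of a site is the share of its reads that stayed C, and its coverage is all reads that show C or T there. Fully grown germinal vesicle (GV) oocytes were taken from ovaries of females 7 to 8 weeks old, 48 h after 10 IU of PMSG, a hormone that makes follicles grow. Metaphase II (MII) oocytes, which are mature and await fertilization, came from oviducts 12 h after 5 IU of hCG, the hormone that triggers ovulation, in females of that age given 10 IU of PMSG first. The 1-cell embryos were flushed 24 h after 5 IU of hCG from mated females of that age that had received 5 IU of PMSG, and about 200 embryos went into a library. The zona pellucida was removed from all samples with hyaluronidase. The methods give another hCG dose for the MII oocytes. The labels name polyadenylated RNA, whereas the methods name RNA depleted of ribosomal RNA for oocytes and embryos. The protocol text for the conversion was not the same for oocytes as for embryos, so stage and preparation cannot be told apart. With 1 library per stage no value has a replicate check. All intervals given are 95% intervals and cover counting error only, and reads without molecular identifiers are not independent molecules. Intervals over sites treat each site as independent, though many sites share a transcript, so these intervals may be too narrow.

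The lists hold called sites alone. Their lowest coverage was 20 reads, their lowest level 10% and their lowest number of unconverted reads 5. A site that is not in a list may therefore be unmethylated, below these limits, or too thinly covered, and fewer molecules of an mRNA cannot be told apart from lower methylation there. The deposited 1-cell list also differed in values from the one in the supplement of the study where the lists were compared, so the embryo values describe the deposited list alone. As a check of the cells, 5, 7 and all 9 of 9 oocyte genes had a called site in the GV, MII and 1-cell lists. Of 11 genes of cumulus and granulosa cells, which surround the oocyte, 2 had a site, both in the MII list (Amh at 96 reads and Cyp19a1 at 49 reads). Their part in the results was not tested.

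As background, m5C in mRNA is written mostly by NSUN2, at C residues followed by G-rich bases at the edge of a hairpin (Type I), and by NSUN6, at the motif CUCCA or close forms of it (Type II). Bound reader proteins link the mark to mRNA stability and export. Carriers matter in these cells because the oocyte takes up amino acids, zinc and energy substrates from its surroundings, and after ovulation it must itself control its pH and volume. Ion exchangers and the glycine transporter Slc6a9 do that work, and Slc25 carriers supply the mitochondria. The oocyte and early embryo make little or no new mRNA between maturation and genome activation, so the transcripts are largely a stored maternal pool.

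The sequences around the Slc sites that the results turn on are printed here 5′ to 3′ as spliced mRNA in DNA letters, with the site and the next 4 bases in capitals. Coordinates are on GRCm38. The first 3 had the steepest rises from GV oocytes to embryo among sites with at least 50 reads at every stage. The next had the deepest coverage in GV oocytes. Then come the site of highest level in GV oocytes among those with at least 100 reads, and sites that fell. The next is a Type II site that rose, and the remainder are Slc25 and Slc6 sites whose surroundings resemble each other.
Slc7a5 (chr8:121907412, minus strand, CDS): gcaccatcatCGGCTctggca
Slc23a2 (chr2:132056191, minus strand, 3′ UTR): cctgatacccCAGGAgcctat
Slc52a2 (chr15:76540955, plus strand, CDS): tctcgtatatCAAGGtggcga
Slc45a3 (chr1:131978144, plus strand, CDS): ggggctgtacCAGGGtgtacc
Slc16a10 (chr10:40141851, minus strand, CDS): ccgttcccccCGAGGgcggct
Slc25a11 (chr11:70645560, minus strand, CDS): ttaggattgcCAGGGaagaag
Slc44a4 (chr17:34928981, plus strand, CDS, Type II): ccatcatgacCTCCAtcatgg
Slc7a11 (chr3:50443112, minus strand, CDS, Type II): tgaggggggtCTCCAtcatca
Slc25a23 (chr17:57045580, minus strand, CDS): gggcctctacCGGGGcattgc
Slc25a44 (chr3:88420576, minus strand, CDS): aggcttctacCGGGGctatgt
Slc25a20 (chr9:108672437, plus strand, CDS): agggctgtatCGGGGcatggc
Slc6a20a (chr9:123655027, minus strand, CDS): ttagaaactgCAGCTtggaat
Slc6a20b (chr9:123603751, minus strand, CDS): ttagaaactgCAGCTtggaat

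The GV oocyte list held 274 Slc sites (243 to 308) in 102 genes, the MII oocyte list 306 (273 to 342) in 106 genes, and that of the embryo 407 (368 to 449) in 92 genes. The embryo thus had the most Slc sites in the fewest Slc genes. Slc sites made up 1.72% of all GV sites, 1.48% of all MII sites and 1.63% of all 1-cell sites. The mean number of sites per listed Slc gene was 2.69, 2.89 and 4.42 in stage order, beside 2.60, 3.07 and 3.90 over all listed genes. Genes with 5 or more sites made up 14.7%, 15.1% and 39.1% of the listed Slc genes, beside 14.5%, 20.4% and 29.6% of all listed genes. The exact binomial intervals of the Slc shares, 8.88% to 23.4% in MII oocytes and 29.1% to 49.9% in the embryo, include the shares of all genes. The median coverage of a Slc site was 93.5, 91 and 54 reads, below the 121, 107 and 58 reads over all sites. Where 50 or more reads were asked for, the lists held 208, 232 and 231 Slc sites, another order.

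Slc23a2, a sodium-coupled carrier of vitamin C, had 19 sites along a spliced transcript of 6364 nt, of which 8, 7 and 18 were called at the respective stages and 6 at every stage. In this gene and in Slc6a6, the taurine carrier (4, 3 and 9 sites), Slc7a11, the cystine-glutamate exchanger (3, 5 and 11 sites), and Slc7a5, a carrier of large neutral amino acids (5, 3 and 10 sites), the embryo list was the longest. Slc6a7, a proline carrier, had the same order (4, 4 and 10 sites). Slc12a9, of the cation-chloride cotransporter family, had 15 sites with 9, 6 and 7 at the stages. Slc7a1, a carrier of cationic amino acids, had 9, 7 and 7 sites, Slc22a23 of the organic ion carriers 8, 7 and 8, and Slc25a44, a mitochondrial carrier, 4, 8 and 5. Slc4a2 and Slc12a5 had the reverse order. Slc4a2, a chloride-bicarbonate exchanger that lowers the pH of the cell, had 8, 8 and 2 sites, and Slc12a5, a potassium-chloride cotransporter, had 8, 10 and none.

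**Figure D1:**
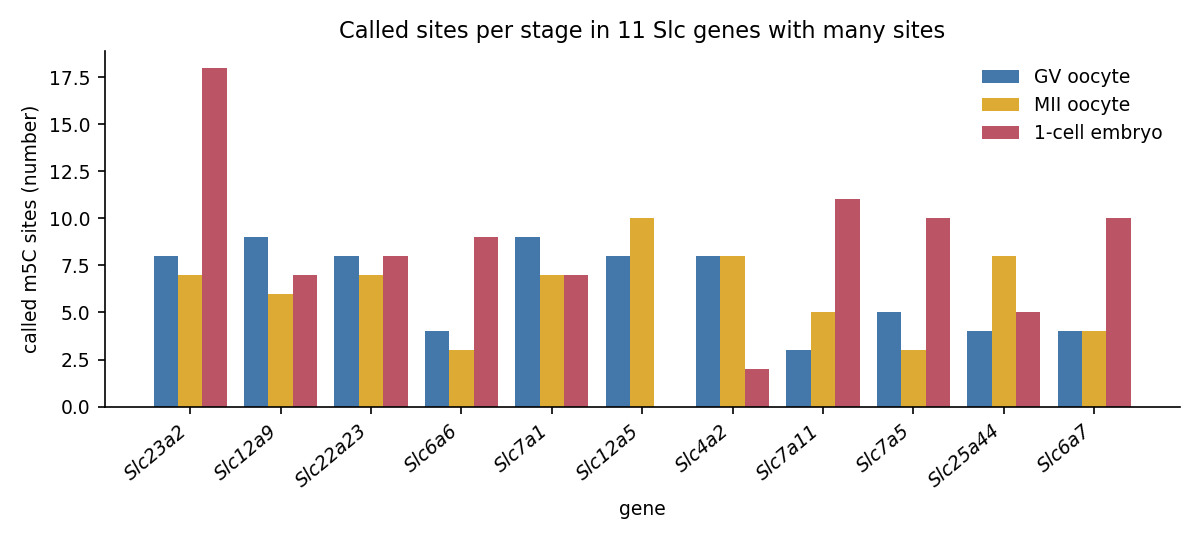
Bars give the number of called m5C sites (y axis) in GV oocytes, MII oocyte and 1-cell embryo lists for 11 Slc genes with many distinct sites (x axis), with 1 library per stage. Slc23a2 reached 18 sites in the embryo, while Slc12a5 had 12 sites in the oocyte lists and none in the embryo.

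Along Slc23a2, 10 sites lay in the CDS, 8 in the 3′ UTR and 1 in the 5′ UTR. A CDS site at chr2:132094149, the best covered of the gene, had a level of 18.02% of 1204 reads in GV oocytes, 19.99% of 1431 in MII oocytes and 32.1% of 380 in the embryo. Fisher's two-sided exact test was run on converted and unconverted reads, with p-values adjusted by Benjamini-Hochberg over the shared sites of all genes. By it this site differed between MII oocytes and the embryo (exact test, adjusted p = 6.16e-06) and the difference between the oocytes did not pass the threshold (exact test, adjusted p = 0.439). The exact test treats reads as the sample, so it compares these libraries and not the stages in general. Another CDS site at chr2:132075538 was at 18.02% of 616 reads, 20.7% of 706 and 31.4% of 105, and passed the exact test from MII to embryo (adjusted p = 0.0326). The 5′ UTR site at chr2:132101712 (14.9% of 141 reads) and 3 sites toward the end of the 3′ UTR (12.6% to 12.9% of 119 to 127 reads) were in the embryo list alone.

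**Figure D2:**
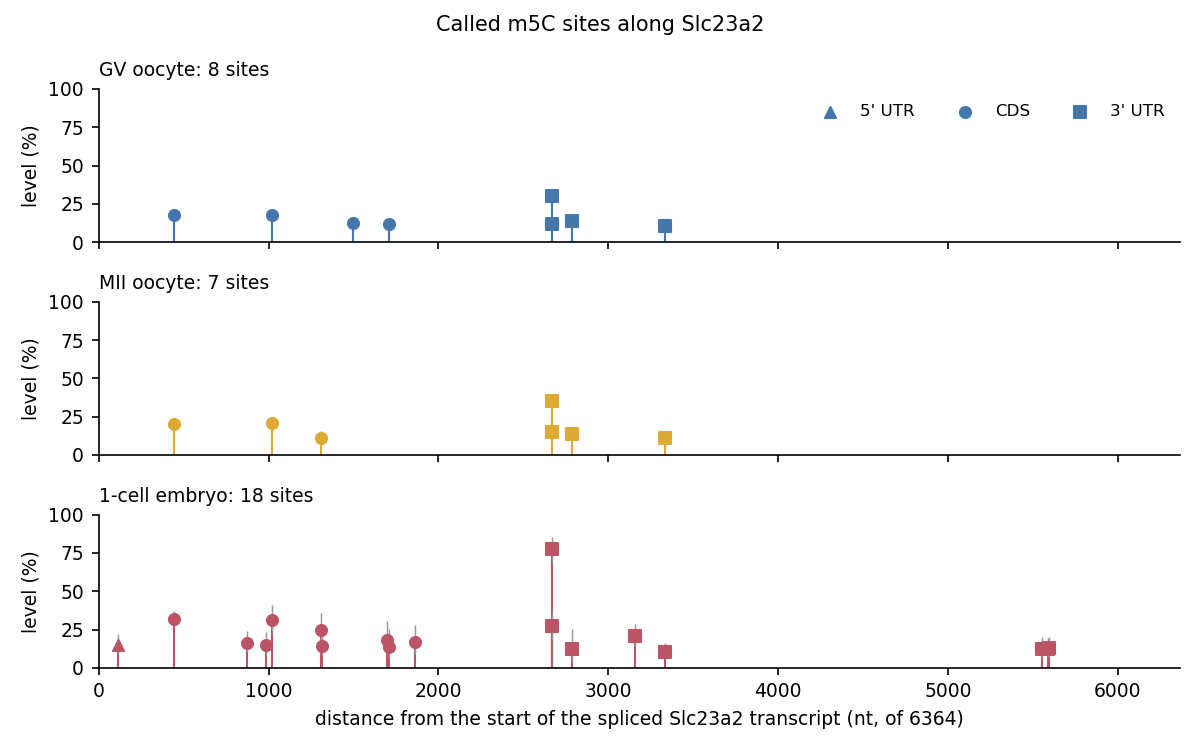
Each stem is a called Slc23a2 site, placed by its distance in nt from the start of the spliced transcript (x axis) with its m5C level in % (y axis), in 1 panel per stage. Triangles, circles and squares mark 5′ UTR, CDS and 3′ UTR, and grey lines are exact binomial 95% intervals. The 18 sites of the embryo reach from the 5′ UTR into the distal 3′ UTR, and the tallest stem is the 3′ UTR site at 77.7%.

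Grouped by family number into 10 classes, each named for what most of its families transport, the carriers had sites in every class. A gene of another substrate stays with its family, as Slc16a10, a carrier of aromatic amino acids, does among the monocarboxylate carriers. GENCODE lists 371 protein-coding genes with Slc names, and 36.4% of them had a site, beside 36.5% of all protein-coding genes. Of 49 family numbers, 37 had a listed gene. Mitochondrial carriers (Slc25) had 27 of 47 genes listed (57.4%) and carriers of nucleotide sugars (Slc33 and Slc35) 15 of 28 (53.6%). Carriers of inorganic ions had 26 of 59 (44.1%) and of metals 13 of 30 (43.3%). The class named for lipids, Slc27 and the choline carrier family Slc44, had 4 of 11 (36.4%). Carriers of vitamins had 4 of 12 (33.3%), of sugars 10 of 34 (29.4%), of amino acids and peptides 20 of 69 (28.99%) and of nucleosides 2 of 7 (28.6%). Carriers of monocarboxylates and organic ions had the lowest share, 11 of 66 (16.7%). A gene can be listed only where its mRNA was read, and mRNA levels are not among the values used.

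The inorganic ion carriers held the most sites, 163, followed by amino acid carriers with 121 and mitochondrial carriers with 106. The ion carriers had 82, 92 and 79 sites in stage order, the amino acid carriers 52, 46 and 88, and the nucleotide sugar carriers 18, 27 and 41. Mitochondrial carriers had 53, 55 and 63 sites and monocarboxylate and organic ion carriers 24, 23 and 26. Metal carriers had 10, 17 and 36 sites. The class named for lipids had 5, 7 and 20 sites. Of its genes Slc27a3 had 1 site, in the embryo, and all its other sites lay in Slc44, the choline carrier family. Both nucleoside carriers, Slc29a2 and Slc29a3, had sites in the oocytes only (3 and 3). Of these genes, 7 of the 15 listed nucleotide sugar carriers and 10 of the 13 metal carriers had a site in the embryo.

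Among 26 carriers with a known role in oocytes or early embryos, 16 had a called site, beside 36.4% of all Slc genes. These carriers were listed for their role in these cells, so their count is a description. For Slc6a9, which takes up glycine to set the volume of the oocyte, 6 sites were called. Its best covered site, in the 3′ UTR at chr4:117868255, was at 12.4% of 776 reads in GV oocytes and 10.8% of 748 in MII oocytes. Another 3′ UTR site at chr4:117868645 was at 25.1% of 443 reads, 28.2% of 330 and 32.1% of 56. These values lay close together, and none of the 3 comparisons passed the exact test (lowest adjusted p = 0.32). For pH control, Slc4a2 is given above, and Slc9a3, a sodium-proton exchanger, had 3 sites in the embryo list alone, at 14.04%, 21.3% and 31.4%.

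The heavy chain Slc3a2 pairs with Slc7a5 or Slc7a11 at the cell surface. It had 4 sites, all in the embryo list alone, at levels from 12.2% to 22.2% with 54 to 98 reads. The glucose carrier Slc2a1 likewise had 4 sites in the embryo list alone, from 13.95% to 41.2% with 34 to 74 reads. The zinc importers Slc39a6 and Slc39a10 differed. Slc39a6 had a 5′ UTR site at 71.0% of 593 reads, 84.6% of 577 and 94.0% of 398, while Slc39a10 had 5 sites, all in the embryo list, from 13.9% to 53.8%. For Slc39a10 the best covered site was at 26.6% of 188 reads. The folate carrier Slc19a1 (4 sites) and the carnitine carrier Slc22a5 (3 sites) were listed in the oocytes alone. No site was called for Slc4a4, Slc2a3, Slc2a8, Slc16a1, Slc16a3, Slc16a7, Slc38a3, Slc7a6, Slc1a4 and Slc1a5. The last is of a family with no listed gene out of 7, Slc1.

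The median level of Slc sites was 19.9% (17.9% to 21.5%) in GV oocytes, 20.0% (18.5% to 21.2%) in MII oocytes and 24.2% (22.5% to 26.7%) in the embryo. Over all sites it was 19.5%, 19.8% and 23.8%, which lies inside these intervals. Where 50 or more reads were asked for, the medians of Slc sites were 18.1%, 19.01% and 18.9%, so the higher value of the embryo was not found at that depth. A level of 50% or more was reached by 29, 34 and 62 Slc sites (10.6%, 11.1% and 15.2%, beside 11.04%, 11.9% and 16.7% of all sites). Exactly 100% was reached by 12 Slc sites, all in the embryo (2.95%, beside 2.204% of all embryo sites).

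Among Slc sites with at least 100 reads, that of Slc16a10 had the highest level in GV oocytes, 83.9% (79.3% to 87.9%) of 299 reads. It had 79.0% of 371 reads in MII oocytes and was at 100% (96.3% to 100%) of 98 reads in the embryo. The phosphate carrier Slc20a1 (chr2:129199915) was at 75.7% of 317 reads, 68.0% of 378 and 90.4% of 104. The bicarbonate carrier Slc4a8 (chr15:100806400) was at 75.4% of 398 reads, 87.3% of 354 and 79.7% of 59. These sites were named for their high levels in GV oocytes, so the high level there follows from the choice. Of the ADP-ATP carriers, which exchange ATP of the mitochondrion for ADP of the cytosol, Slc25a5 and Slc25a4 had sites of high level as well. These sites too were named by the rule for the highest levels of a stage. Slc25a5 (chrX:36796924) was at 67.5% of 554 reads, 60.9% of 598 and 80.1% of 256. Slc25a4 (chr8:46209134) was at 71.7% of 219 reads, 62.3% of 191 and 64.5% of 62. Slc25a5 has processed pseudogene copies in the genome, so its reads may not all come from this gene.

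Slc45a3, of the sugar carriers, had the deepest coverage. Its CDS site at chr1:131978144 was at 18.3% (16.9% to 19.8%) of 2802 reads in GV oocytes, 27.6% (25.9% to 29.4%) of 2447 reads in MII oocytes and 44.3% (41.3% to 47.4%) of 1051 reads in the embryo. The 3 intervals did not overlap, and every step passed the exact test (adjusted p = 1.46e-13 and 1.19e-19). A 5′ UTR site at chr1:131976726 was at 10.7% of 4497 reads in MII oocytes and 15.1% of 1056 reads in the embryo. With 1230 and 1297 reads, sites at chr1:131978155 (17.1%) and chr1:131978780 (11.6%) were listed in the embryo alone.

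Most Slc sites lay in the CDS, with 63.1%, 67.0% and 63.1% in stage order, beside 68.1%, 68.6% and 73.3% of all sites. In the 3′ UTR lay 26.3% (21.2% to 31.9%), 22.5% (17.99% to 27.6%) and 25.1% (20.9% to 29.6%) of the Slc sites. Of all sites, 18.7%, 18.1% and 14.6% lay there. The Slc interval lay above the share of all sites in GV oocytes and the embryo, and included it in MII oocytes. The 3′ UTR sites were spread over 42, 39 and 43 Slc genes, with at most 9 in a gene (Slc7a11 in the embryo). Without Slc7a11 the embryo share was 23.5%. The 5′ UTR held 10.6%, 10.5% and 11.8%, beside 11.2%, 11.3% and 10.3% of all sites. The median level differed little between regions, with 24.7% in the CDS and 23.7% in the 3′ UTR in the embryo.

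**Figure D3:**
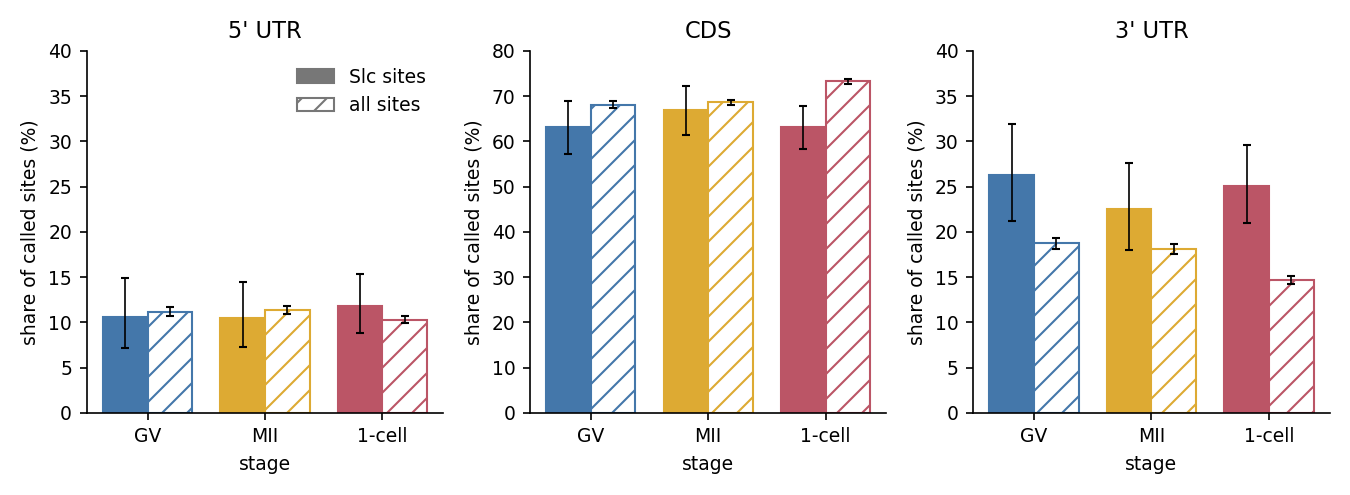
Filled bars give the share of called Slc sites and hatched bars that of the sites of all genes (y axis, %) in the 5′ UTR, CDS and 3′ UTR at each stage (x axis), with exact binomial 95% intervals. In the 3′ UTR panel the Slc bars stand at 26.3%, 22.5% and 25.1% above 18.7%, 18.1% and 14.6% of all sites.

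Sites in the first 200 nt of the transcript made up 6.20% (3.66% to 9.75%) of the Slc sites in GV oocytes, 6.21% (3.78% to 9.53%) in MII oocytes and 9.34% (6.69% to 12.6%) in the embryo. Of all sites 10.1%, 10.1% and 9.69% lay there, above the Slc interval in both oocytes and inside it in the embryo. G stood at the position after next in 62.4%, 59.2% and 60.0% of the Slc sites, beside 64.8%, 64.9% and 59.0% of all, and the share of all lay just above the Slc interval (53.4% to 64.7%) in MII oocytes. The site was unpaired in the predicted fold for 42.0%, 44.4% and 44.0%, beside 41.7%, 40.8% and 39.4%. Of the CDS sites, 39.3%, 42.4% and 43.1% lay at the last base of a codon, beside 35.5%, 35.4% and 36.5%. The Slc transcripts held 1.29 distinct sites per kb over the 3 lists, and all listed transcripts 1.28.

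Type II sites were few, with 12, 12 and 9 of the Slc sites (4.38%, 3.92% and 2.21%, beside 5.91%, 5.03% and 3.44% of all). The highest of at least 50 reads was in Slc25a23, a mitochondrial ATP carrier, at 72.7% of 55 reads in GV oocytes and 77.5% of 40 reads in MII oocytes (chr17:57045638). Slc41a2, a magnesium carrier (chr10:83316305), was at 35.8% of 81 reads and 43.5% of 69. The Slc7a11 site printed above was at 13.5% of 459 reads, 12.2% of 427 and 23.8% of 160, and passed the exact test from MII to embryo (adjusted p = 0.00222). In Slc20a1 (chr2:129209218) the level was 24.6% of 122 reads, 25.6% of 156 and 26.4% of 53, a course without a change that passed the test. None of the 11 Type II Slc sites shared by the oocytes passed it. Over all genes 10.2% of 765 such Type II sites were called higher and 1.44% lower, so none of 11 is too few to read.

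Of the 646 Slc sites, 97 were called at every stage, 114 in both oocytes alone, 9 in GV oocytes and embryo, 24 in MII oocytes and embryo, 54 in GV oocytes alone, 71 in MII oocytes alone and 277 in the embryo alone. The embryo-only sites made up 42.9%, beside 41.3% of the sites of all genes. They lay in 83 genes at a median level of 21.2% and a median coverage of 54 reads. Sites called at every stage had median oocyte coverages of 219 reads in the GV and 191 in MII oocytes. Sites of GV oocytes and embryo had 186 reads in GV oocytes, and sites of MII oocytes and embryo 211 in MII oocytes. Sites of the GV oocyte alone had 47 reads and those of the MII oocyte alone 55. By gene, 62 of the 135 had a site at every stage (45.9%, 37.3% to 54.7%), beside 53.9% of the 8353 listed genes. In both oocytes but not the embryo were 30 (22.2%, 15.5% to 30.2%), beside 13.4%, and in the embryo alone 19 (14.1%), beside 13.6%.

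From the GV to the MII oocyte, levels at 211 shared Slc sites were higher by a median of 3.39 points (1.96 to 5.21), beside 4.87 points over the shared sites of all genes. Of these, 32 were higher in MII oocytes by the exact test (15.2%) and 3 lower (1.42%). Over all genes 19.6% of the shared sites were called higher and 0.965% lower. The shared Slc sites had median coverages of 108 reads in GV and 95 in MII oocytes, beside 151 and 126 over all genes. More reads let the exact test call smaller differences, and the part of coverage in the lower Slc share was not tested. Rises of 10 points or more were found at 54 sites (25.6%, beside 25.3% of all) and falls of that size at 14 (6.64%, beside 3.88%). The largest called rise was in Slc22a3, a carrier of organic cations (chr17:12421495), from 14.9% of 47 reads to 57.1% of 28 (exact test, adjusted p = 0.00239). Slc12a2, the sodium-potassium-chloride cotransporter, rose from 15.8% of 76 reads to 42.4% of 66 (exact test, adjusted p = 0.00592). A 3′ UTR site of Slc35e4 (chr11:3907103) rose from 20.4% of 93 reads to 48.0% of 50, and a CDS site of the carnitine carrier Slc25a20 (chr9:108680150) from 38.7% of 93 to 64.6% of 82.

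The 3 called falls from GV to MII were in Slc41a1 and Slc7a1. The magnesium carrier Slc41a1 (chr1:131830865) fell from 50.8% of 65 reads to 23.9% of 67 (exact test, adjusted p = 0.0145), and then stood at 100% of 33 reads in the embryo. In Slc7a1, a 3′ UTR site (chr5:148328906) fell from 47.6% of 105 reads to 23.1% of 173 (exact test, adjusted p = 0.00053), and a CDS site (chr5:148342012) from 44.4% of 81 to 22.2% of 117 (exact test, adjusted p = 0.00885). The first of these was at 39.1% of 46 reads in the embryo.

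From the MII oocyte to the embryo, 121 shared Slc sites were higher by a median of 13.7 points (10.9 to 18.5), beside 12.7 points over all genes. The exact test called 65 higher (53.7%) and 3 lower (2.48%), against a background of 51.3% higher and 2.45% lower over all shared sites. Rises of 10 points or more were found at 75 sites (62.0%, beside 57% of all) and falls of that size at 10 (8.26%, beside 4.43%). The magnesium carrier site above had the largest rise, from 23.9% to 100%, and the Slc7a5 site the next, from 10.4% of 241 reads to 78.2% of 55. Slc35c2 (chr2:165276713), of the Golgi carriers, rose from 30.0% of 100 reads to 93.3% of 30 (exact test, adjusted p = 3.12e-09). In Slc25a20 the site in the TATCGGGG context rose from 13.95% of 86 reads to 73.3% of 30 (exact test, adjusted p = 3.3e-08). A 3′ UTR site of Slc7a1 (chr5:148331881) rose from 20.2% of 307 reads to 78.4% of 37 (exact test, adjusted p = 4.2e-11), while its neighbour above had fallen at the step before.

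The 3 called falls rested on few embryo reads. The Type II site of Slc44a4, of the choline carrier family, was at 52.2% of 23 reads, 86.2% of 29 and 27.03% of 37 in stage order. From MII to embryo it fell by 59.2 points, the largest fall of the 8015 shared sites of all genes (exact test, adjusted p = 8.01e-06). In Slc25a11, the oxoglutarate-malate carrier, the level was 66.7% of 60 reads, 53.8% of 80 and 17.6% of 34 (exact test from MII to embryo, adjusted p = 0.00117). In Slc4a8 (chr15:100791621) it was 31.01% of 158 reads, 39.3% of 140 and 13.2% of 38 (exact test, adjusted p = 0.005). At sites with at least 50 reads in both libraries the counts were 41 higher and none lower.

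From the GV oocyte to the embryo, 106 shared Slc sites were higher by a median of 18.6 points (13.4 to 25.9), beside 19.2 points over all genes. The exact test called 66 higher (62.3%) and 2 lower (1.89%), beside 66.1% and 1.05% of all shared sites. This comparison shares its libraries with the other 2, so it is not separate evidence. Differences of at least 10 points upwards were found at 72 sites (67.9%, beside 70.1%) and downwards at 4 (3.77%, beside 2.19%). Slc25a11 fell by 49.02 points, the largest fall of the 6478 shared sites of all genes. The iron carrier Slc11a2 (chr15:100401384) stood at 32.9% of 213 reads, 48.4% of 91 and 100% of 20, and Slc15a4, a lysosomal carrier of histidine and peptides (chr5:127600540), at 35.2% of 310, 53.7% of 246 and 95.7% of 47.

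**Figure D4:**
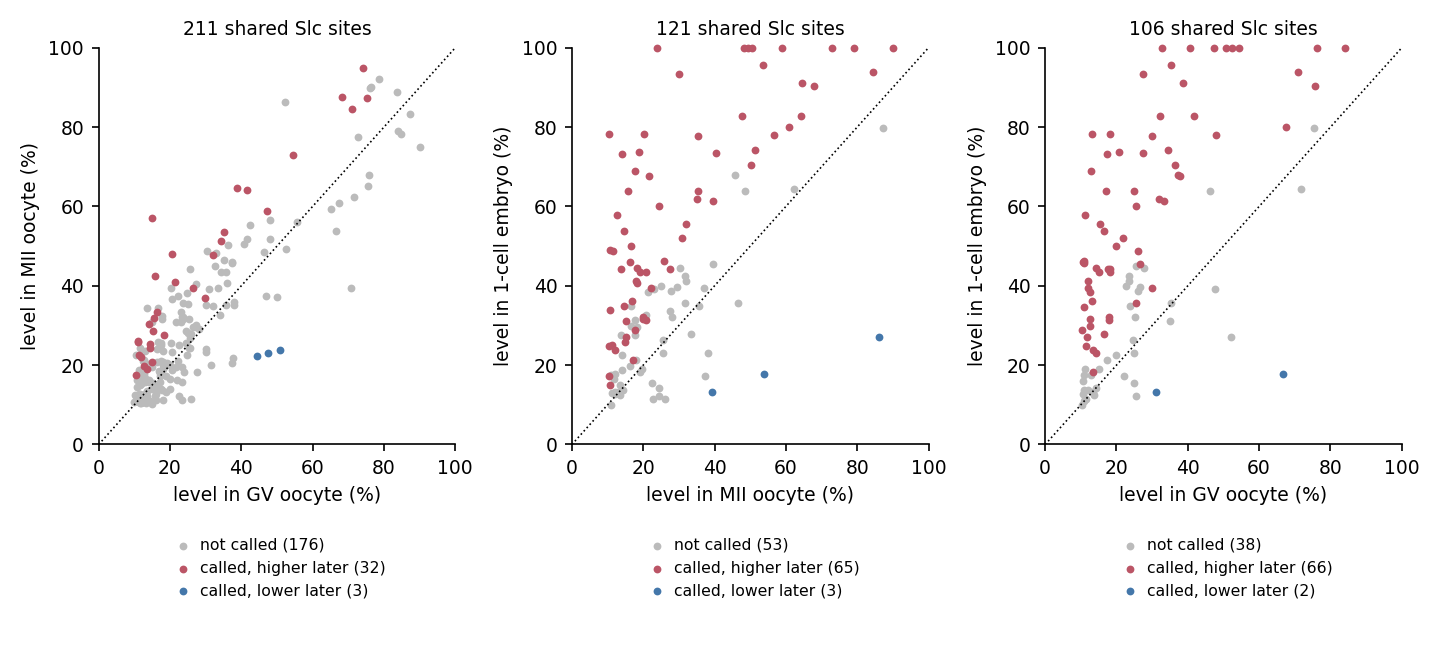
Each point is a Slc site called at both stages of a pair, with its level in % at the earlier (x axis) and the later stage (y axis), and the dotted line marks equal levels. Of 211, 121 and 106 shared sites, 32, 65 and 66 were called higher and 3, 3 and 2 lower at the later stage by the exact test on reads.

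By class, amino acid carriers had 18 of 24 shared sites called higher in the embryo than in GV oocytes (median difference 25.1 points), and mitochondrial carriers 17 of 21 (28.6 points) with 1 lower. Inorganic ion carriers had 11 of 22 (10.7 points) with 1 lower, and vitamin carriers 5 of 10 (7.54 points). Between the oocytes, the mitochondrial carriers had 6 of 40 shared sites called higher and none lower (median difference 0.897 points, from -12.9 to 25.9), and the ion carriers 5 of 64 higher and 1 lower (5.88 points). Over the shared sites of all genes, 66.1% were called higher and 1.05% lower from GV to embryo. From GV to MII oocytes these shares were 19.6% and 0.965%. The classes held few shared sites, and whether they differed from these shares or from each other was not tested. The proteins that are not carriers had 3 shared sites from GV oocytes to embryo, of which 2, in Slc4a1ap, were called higher. From GV to MII oocytes all 3 shared sites were called higher, and from MII oocytes to embryo 3 of 5. The Slc9a3r1 site (chr11:115176472) stood at 14.3% of 265 reads, 24.4% of 213 and 14.3% of 91.

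At the 97 Slc sites called at every stage, which lay in 49 genes, the median level was 23.6% in GV oocytes, 25.8% in MII oocytes and 44.2% in the embryo. Over the 6145 such sites of all genes it was 21.6%, 28.1% and 45.5%. Counted by value alone, with no test, levels rose at both steps at 54 Slc sites, which was 55.7% (45.2% to 65.8%), beside 67.4% of all such sites. They fell at both steps at 4 (4.12%, beside 1.82%), rose and then did not at 16, and did not rise and then rose at 23. The upper bound of the Slc interval lay below 67.4%. The Slc sites had median coverages of 219, 191 and 52 reads, beside 279, 242 and 66, and the part of coverage in this difference was not tested beyond the following minimums. At sites with at least 50 reads at every stage the share was 64% of 50 Slc sites (49.2% to 77.1%), beside 69.4% of all, and at 100 reads 64% of 25 (42.5% to 82.03%), beside 73.8%, so these intervals include the share of all. With a level of at least 20% at every stage, 69.6% of 46 Slc sites rose at both steps, and the share over all genes was not counted there.

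Within some genes the courses diverged, while in most of those counted here they had the same direction. Of 29 Slc genes with 2 or more such sites, 21 had all of them higher in the embryo than in GV oocytes (72.4%), beside 74.5% of 1440 such genes in all. In Slc23a2, the 3′ UTR site printed above rose from 30.1% of 582 reads and 35.3% of 601 to 77.7% of 103 (exact test from GV to embryo, adjusted p = 1.99e-18). The adjacent C was at 11.8% of 594, 15.2% of 613 and 27.2% of 103. Farther along the same 3′ UTR, the site at chr2:132055524 stayed at 10.5% of 927 reads, 11.1% of 949 and 10.1% of 139. The riboflavin carrier Slc52a2 had the same contrast, with 11.2% of 277 reads, 12.6% of 214 and 57.9% of 57 at the site printed above, and 13.4% of 172, 13.04% of 184 and 13.3% of 75 at chr15:76539597. Both a steep rise and a level course were thus found in each of these mRNAs of vitamin carriers. The rising and the level sites were named by the rule for the largest rises and falls, so the contrast is a description.

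Slc7a5 had the steepest rise among the 50 sites with at least 50 reads at every stage, from 13.3% (8.85% to 18.8%) of 196 reads and 10.4% (6.83% to 14.9%) of 241 to 78.2% (65.0% to 88.2%) of 55. The difference from GV to embryo was 64.9 points (exact test, adjusted p = 1.77e-18). Another Slc7a5 site in the same exon (chr8:121907266) stood at 52.5% of 219 reads, 49.3% of 217 and 100% of 40. The embryo list held 2 sites between the first of these and the transcript start, at 18.9% of 53 reads and 23.6% of 55, that were in neither oocyte list. Slc10a6, a carrier of sulfated steroids (chr5:103606742), climbed at both steps, from 41.7% of 132 reads to 64.1% of 92 and 82.8% of 64, and each step passed the exact test (adjusted p = 0.0089 and 0.0242). Slc22a23 (chr13:34180829) had 36.4% of 187 reads, 50.4% of 141 and 70.4% of 54. Slc6a7 and Slc39a6 had further sites of this kind, at 15.5%, 31.9% and 55.6%, and at 10.9%, 25.8% and 46.3%. Compared with GV oocytes, the embryo had higher levels at 46 of these 50 sites and lower levels at 4. The lower ones, in Slc25a4, Slc23a2, Slc9a3r1 and Slc52a2, differed by -7.17, -0.392, -0.0539 and -0.0388 points, and none passed the exact test (adjusted p = 0.336 for Slc25a4). Sites of all genes were not counted at this coverage. Without the minimum, 91 of 106 shared Slc sites were higher in the embryo than in GV oocytes, beside 5858 of 6478 over all genes.

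**Figure D5:**
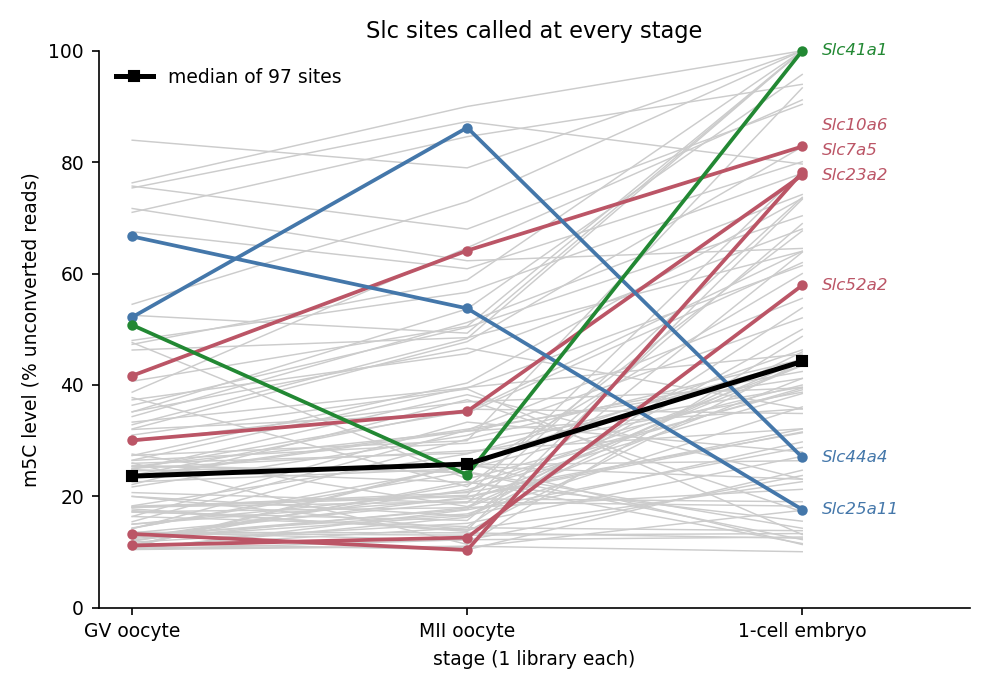
Grey lines join the levels (y axis, % unconverted reads) of each of the 97 Slc sites called at the 3 stages (x axis, 1 library each), and the black line joins their medians of 23.6%, 25.8% and 44.2%. Red lines are the 4 steepest rises among sites with at least 50 reads at every stage (Slc7a5, Slc23a2, Slc52a2, Slc10a6), blue lines are Slc44a4 and Slc25a11, which fell in the embryo, and the green line is Slc41a1, which fell and then rose to 100%.

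Some Slc sites lay in related surroundings. The mitochondrial carriers of the Slc25 family share a repeated sequence signature, and 3 of the 106 Slc25 sites lay at the first C of CGGGG after TAC or TAT, in Slc25a23, Slc25a44 and Slc25a20. Among the 40281 sites of all genes with a window, 38 had that context. The Slc25a20 site rose in the embryo as given above. The Slc25a44 site stood at 19.4% of 72 reads in GV oocytes and 20.4% of 103 in MII oocytes. Whether this context goes with a rise was not tested. The windows of Slc6a20a and Slc6a20b are identical over their 21 nt. How reads were assigned between these paralogs was not tested, and both values are uncertain. Slc6a20a was at 17.6% of 68 reads in MII oocytes and 31.4% of 51 reads in the embryo. The values of Slc6a20b lay close to these, at 20.9% of 67 reads and 32.7% of 52.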

How the data were processed

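Called m5C sites were analysed in 3 lists, 1 library for each stage. Per the labels and the methods, the authors trimmed reads with cutadapt 1.13 and Trimmomatic 0.36 and aligned them to the converted GRCm38 genome with HISAT2 and the rest to the converted transcriptome with Bowtie2 2.2.9. Sites were then filtered on coverage, level, unconverted reads and the conversion of the gene. Coverage is a read count that the authors deposited without normalization. The deposited level is a fraction, unconverted over all reads, and is given in percent. The p-value deposited by the authors, a binomial test against the conversion of the gene, was used only to check the lists. Columns with other sample values did not occur (0 unused).

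Unconverted reads were recovered as level times coverage. Sites were placed in GENCODE M21 transcripts by Ensembl identifier, in the order CDS, 5′ UTR, 3′ UTR, and surroundings were read from the GRCm38 sequence of RefSeq, where all 646 Slc sites were C. Windows of 101 nt were folded with ViennaRNA 2.7.2 at 37 °C. Type II was CUCNA from the site on. Shared sites of all genes were tested with Fisher's two-sided exact test (scipy 1.17.1) with Benjamini-Hochberg adjustment within each pair and a threshold of 0.05. The test was also run on simulated reads. These were drawn independently, so the simulation cannot show how the test behaves where reads are not independent. Medians have order-statistic intervals, counts Poisson and shares exact binomial (Clopper-Pearson) intervals. Python 3.11.15, numpy 2.4.6, pandas 2.3.3, pysam 0.24.0 and matplotlib 3.10.9 were used.

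The members, the classes by family number and the other lists were chosen with earlier results of these data known. The rule for named genes took the 12 genes with most sites, the largest rises and falls from GV to embryo at sites of at least 50 reads, the 6 highest sites per stage of at least 100 reads, the 3 deepest per stage, Type II sites of at least 50 reads, carriers with a known role in oocytes, and the 5 largest called changes per pair. Chosen after their values were seen were the Slc7a5 and Slc23a2 sites beyond this rule, the map of Slc23a2, the Slc25 contexts, and the placing of Slc4a1ap and Slc7a6os among the proteins that are not carriers. Alternatives were other minimums of coverage and level, thinned or divided reads, another adjustment, the motif CUCCA and the transcript with the longest CDS. Some sites named by this rule are given in counts only, and coordinates and sequences of 4 genes were left out. Of the 12 genes with most sites, 11 are described. The other is not reported here, though its sites stay in the counts.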

Additional observations from a re-analysis of the deposited data

How the results depend on the processing

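With 1 library per stage, all values rest on these libraries. No paired analysis was possible because each stage has 1 library, and none was left out. The lists begin at 20 reads and 5 unconverted reads, so low levels at low coverage are not listed. In the embryo, 176 of 407 Slc sites were under 50 reads.

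Where 50 or more reads were asked for, the embryo held 231 Slc sites with a median level of 18.9%. Of 71 shared Slc sites, 41 were then called higher and 0 lower from MII to embryo. Of 55, 39 were called higher and 0 lower from GV to embryo. Over all genes 52.5% were then higher and 3.15% lower from MII to embryo, and 69.3% and 1.28% from GV to embryo. At 100 reads the lists held 130, 136 and 91 Slc sites in 56, 54 and 30 genes, and the medians of the MII oocyte and the embryo were 18.3% and 17.1%. Of 35 shared Slc sites, 24 were then called higher and 0 lower from MII to embryo. Of 26, 22 were called higher and 0 lower from GV to embryo. Over all genes 56.6% were then higher and 3.10% lower from MII to embryo, and 75.5% and 1.03% from GV to embryo. These alternatives have fewer sites by construction.

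At a level of at least 20% the lists held 137, 155 and 250 Slc sites, with medians of 31.1%, 32.2% and 33.8% by construction and 2.87 sites per gene in the embryo. The shared sites then had median differences of 5.24 points from GV to MII and 18.7 points from MII to embryo. Of those called at every stage, 69.6% rose at both steps, with no share over all genes counted. Called were 17 higher from GV to MII, 34 higher and 1 lower from MII to embryo, and 34 higher and 0 lower from GV to embryo.

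Thinned to 50 reads, the embryo held 219 Slc sites in 60 genes, the medians were 22% in MII oocytes and 20% in the embryo, and the median difference from MII to embryo was 10 points. Called were 0 higher and 0 lower from GV to MII, 12 higher and 0 lower from MII to embryo, and 15 higher and 0 lower from GV to embryo. The shares called higher were 0%, 19.4% and 33.3% of the Slc sites, beside 0.172%, 20.1% and 36.8% over all genes. The differences at a Slc7a11 site (chr3:50369985, GV to MII) and a Slc4a1ap site (chr5:31527286, GV to embryo) reversed to -2 and -10 points. With reads divided by 5 the calls were 0 higher and 0 lower, 9 higher and 0 lower, and 18 higher and 0 lower in the order of the pairs. The loss of calls follows from the fewer reads. Over all genes, Fisher's exact test then called 87 of 12954, 588 of 8015 and 1368 of 6478 shared sites higher. Adjusting over the 3 pairs together gave 5 lower from GV to MII (2.37%, beside 1.24% over all genes). From GV to embryo it gave 1 lower (0.943%, beside 0.926%). For the motif CUCCA and for the transcript with the longest CDS, all 12 values stayed within their intervals.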

Other observations

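Other membrane transport genes held called sites as well. ABC transporters, which use ATP to move lipids, peptides and drugs, had 139 sites in 23 genes, and P-type ATPases, the ion and lipid pumps, had 137 sites in 23 genes. The ABC transporters had 68, 79 and 68 sites in GV oocytes, MII oocytes and embryos, at median levels of 20.1%, 19.6% and 25.8%. The P-type ATPases had 57, 74 and 73 sites, at 23.8%, 20.0% and 21.6%. The V-type ATPases, which acidify organelles, had 26, 27 and 37 sites in 13 genes, at 17.1%, 18% and 21.7%. Carriers without an Slc name had 44, 44 and 48 sites in 22 genes, at 26.9%, 24.9% and 28.7%. Partners and regulators of carriers had 18, 28 and 21 sites in 5 genes, at 21.04%, 19.7% and 20.6%. These lists were chosen with earlier results known, and no difference between them was tested.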
